A study of Gallus gallus with 27 samples.

Results

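The closing intervals are 3307 of the 140062 genomic intervals at which open chromatin was counted in cells sorted from chick embryos at Hamburger-Hamilton stage HH18 and stage HH25. They were chosen by measured values. Read counts were divided by the library total and scaled to CPM (counts per 1000000 counts), averaged over the 3 libraries of a group and raised by 1 CPM. An interval entered the set when its value at HH18 was at least 2 times its value at HH25 in each of the 3 sorted populations (double-positive, E2-only, double-negative). The set is 2.36% of all intervals. Lower at HH25 here means a smaller share of a library's counts, and a set built the same way in the opposite direction (the opening intervals, 6897 or 4.92%) is used for comparison.

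Open chromatin was read with ATAC-seq, in which a transposase cuts and tags DNA where it is not wrapped tightly in nucleosomes, so a high count marks an accessible stretch. Accessible stretches away from gene starts are often enhancers, and many of those that act early in an embryo lose accessibility as cells differentiate. Neural crest cells leave the dorsal neural tube, migrate and form many cell types, and vagal crest is best known as the main source of the enteric nervous system. All groups came from Wild-type chicken embryos electroporated at HH8/9 with NC2:citrine and E2:citrine reporters, and dissected vagal regions were dissociated and sorted. In work on chick crest, NC2 and E2 are names of enhancers of FOXD3 and SOX10, transcription factors of the early crest.

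The 6 groups are NC2+, E2+ cells (double-positive), NC2-, E2+ cells (E2-only) and NC2-, E2- cells (double-negative), each at HH18 and at HH25, with 3 libraries labelled as biological replicates in each. The first 2 populations are labelled neural crest and the last negative control. Double-negative cells are a mixture of whatever vagal cells were sorted as negative for both reporters, which may include crest cells that took up no plasmid. Both reporters carry enhancers that also exist in the genome, and where these lie in the build used (galGal5) is not stated in the labels, so reads from reporter and genome cannot be told apart at those sites. How many embryos went into a library is not stated in the labels. Stage is shared by all libraries of a sort, so anything else that differed between the HH18 and HH25 preparations cannot be told apart from stage. In a sorted population, fewer cells with an open site and less opening per cell cannot be told apart either.

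Library totals ran from 992341 to 6976050 counts at HH18 and from 2609023 to 5559179 at HH25. A count of 3, taken as the floor, was worth 0.43 to 3.02 CPM across the 18 libraries. The smallest value in the table is a count of 1, never 0, so whether a 1 stands for a read could not be told. Between 0 and 90 closing intervals stood at that value in an HH18 library and between 51 and 360 in an HH25 library, so the lowest HH25 levels carry large counting error. Intervals are 200 bp wide apart from 1 of 394 bp. All 3307 passed the filter on low counts, which kept 134020 intervals for testing.

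Closing intervals held a visible part of each HH18 library and little of each HH25 library. They took 5.73%, 5.55% and 5.79% of the counts in the HH18 double-positive libraries, 8.32%, 8.20% and 8.47% in the E2-only libraries and 3.58%, 4.03% and 3.74% in the double-negative libraries. At HH25 the shares were 1.47%, 1.42% and 1.55% in double-positive, 1.36%, 1.18% and 1.21% in E2-only and 1.12%, 0.884% and 0.966% in double-negative libraries. The E2-only population had the highest share at HH18 and the widest drop. At HH25 the 3 populations lay closer together in percentage points but did not overlap. Each double-positive library was above each E2-only library, and each E2-only library was above each double-negative one. These stage differences describe what the rule chose and are not tested.

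The median closing interval followed the same order at HH18. Its level was 11.2 ± 0.472 CPM in double-positive, 19.3 ± 0.608 CPM in E2-only and 9.23 ± 0.763 CPM in double-negative cells at HH18 (mean of the library medians ± SD, n = 3 for each). At HH25 it was 2.70 ± 0.195, 2.81 ± 0.216 and 2.23 ± 0.264 CPM in the same order (SD, n = 3). The median over all intervals lay between 3.50 and 3.96 CPM at HH18 and between 4.20 and 4.52 CPM at HH25, so the set moved from above the typical interval to below it. Many members were low at HH25: the group mean was below 2 CPM for 1187 of them (35.9%) in double-positive cells, for 1102 (33.3%) in E2-only cells and for 1480 (44.8%) in double-negative cells. The floor of 3 counts was worth 0.540 to 1.15 CPM in HH25 libraries, so such a mean could still lie above it. Over all intervals the shares below 2 CPM at HH25 were 17.8%, 16.8% and 21.5%.

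**Figure D1:**
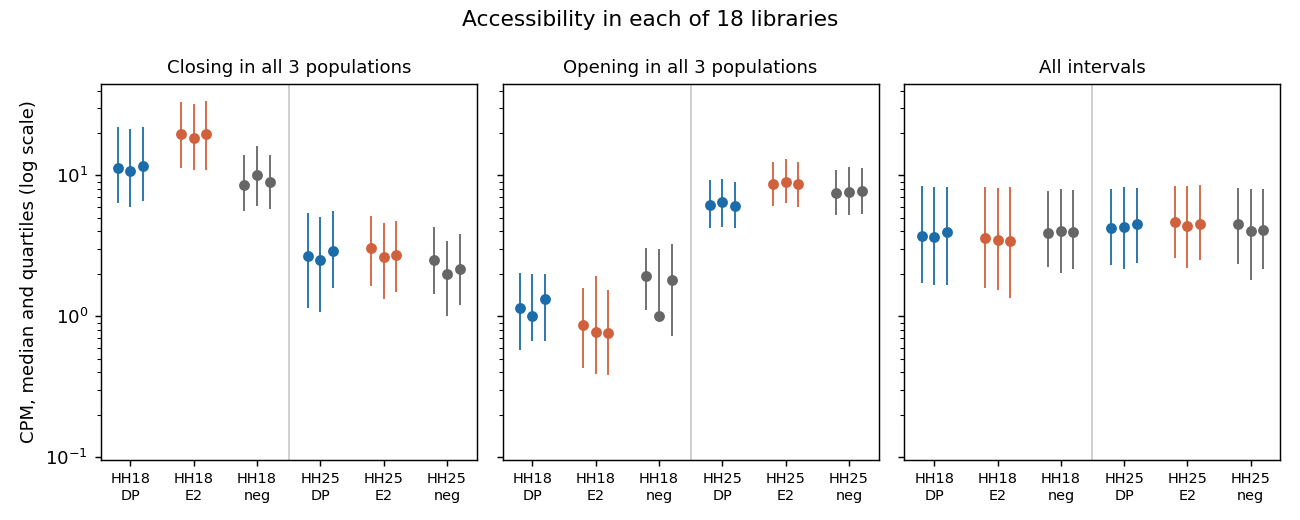
CPM (log axis) in each of the 18 libraries over the closing, the opening and all intervals; points are library medians and lines span the quartiles, for double-positive (DP), E2-only (E2) and double-negative (neg) cells. The closing intervals have medians of 8.60 to 19.7 CPM in the 9 HH18 libraries and of 2.00 to 3.05 CPM in the 9 HH25 libraries, and the opening intervals lie the other way round.

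The rule's 3 conditions were met separately by 13270 intervals in double-positive cells, 21605 in E2-only cells and 12480 in double-negative cells. Pairs of conditions were met by 6148 intervals (double-positive and E2-only), 4416 (double-positive and double-negative) and 7374 (E2-only and double-negative). Within the set the ratio of HH18 to HH25, with 1 CPM added to both, had a median of 2.88 in double-positive cells (quartiles 2.36 and 3.91), 4.83 in E2-only cells (3.24 and 7.35) and 2.86 in double-negative cells (2.35 and 3.65). The ratio reached 4 in 2067 members (62.5%) in E2-only cells, against 781 (23.6%) in double-positive and 641 (19.4%) in double-negative cells. Over all intervals the median ratios were 0.927, 0.841 and 1.01.

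The edge of the set was not a gap in the data. The member nearest above the threshold, chr1:113763464-113763664, had its smallest ratio, 2.00004, in double-negative cells, where its level went from 3.88, 7.05 and 8.28 CPM at HH18 to 3.06, 2.40 and 2.65 CPM at HH25. The nearest interval outside, chr21:1736985-1737185, had a smallest ratio of 1.99978 in double-positive cells, from 15.8, 11.0 and 10.6 CPM to 8.82, 4.68 and 3.70 CPM. In neither case did the HH18 and HH25 libraries of that population overlap, and the other intervals nearest the threshold, on chromosomes 4 and 9 inside and on chromosomes 4 and Z outside, had smallest ratios between 1.99953 and 2.00075. One of them did overlap: at chrZ:36803029-36803229, outside the set, double-positive libraries read 5.46, 9.65 and 18.9 CPM at HH18 and 8.05, 2.16 and 5.29 CPM at HH25.

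Libraries separated by stage in most but not all members, which the choice on the same libraries largely fixes. The 3 HH18 libraries were all above the 3 HH25 libraries in 3144 members (95.1%) for double-positive, 3282 (99.2%) for E2-only and 3059 (92.5%) for double-negative cells; over all intervals the shares were 17.6%, 23.0% and 15.6%. All 9 HH18 libraries exceeded all 9 HH25 libraries, across populations, in 1739 members (52.6%) and in 1.93% of all intervals. In the remaining members some HH18 library did not exceed some HH25 library, either within a population or between populations. Several intervals described below are of the second kind.

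Every library took part in choosing the closing set, so the drop was also read in sets rebuilt without some libraries. When the set was rebuilt from 2 of the 3 replicate numbers and read in the number left out, the rebuilt sets held 3824, 3110 and 3382 intervals (replicate 1, 2 and 3 left out). All 3 ratios again reached 2 in 42.2%, 53.0% and 49.8% of them, where 2.16%, 3.06% and 2.71% of all intervals did so in the same libraries. All 3 ratios exceeded 1 in 88.7%, 89.9% and 91.0%, against 18.4%, 20.4% and 19.6% of all intervals. The shares that reached 2 cannot exceed the shares above 1, since every ratio of at least 2 is also above 1. These values describe the rebuilt sets and not the closing set itself.

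The 6 closing intervals highest at HH18 were not alike across populations. The highest, chr1:153949737-153949937, was at 602 ± 80.6 CPM in double-positive, 599 ± 104 CPM in E2-only and 26.7 ± 5.35 CPM in double-negative cells (SD, n = 3). By HH25 it read 35.6, 51.1 and 54.7 CPM in double-positive, 22.7, 24.6 and 17.2 CPM in E2-only and 11.7, 7.01 and 10.6 CPM in double-negative libraries. Its HH25 double-positive libraries thus stayed above its HH18 double-negative libraries.

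The next pair had nearly equal counts. An interval at positions 4040 to 4240 of an unplaced contig assigned to chromosome 8 and the interval chr8:27835367-27835567 had counts whose ratio was 0.970 to 1.11 in the 6 libraries with more than 400 counts and 0.429 to 1.88 over all 18, and they may share reads. On chromosome 8 the HH18 levels were 151, 249 and 246 CPM in double-positive, 144, 185 and 220 CPM in E2-only and 6.38, 7.05 and 11.5 CPM in double-negative libraries. The HH25 levels were 6.52, 13.3 and 19.3 CPM, 3.75, 2.19 and 4.74 CPM, and 1.08, 0.801 and 1.93 CPM. Both crest populations stood far above double-negative cells at HH18. By HH25 double-positive libraries overlapped the HH18 double-negative ones and E2-only libraries lay below them. At the contig interval HH25 double-positive libraries, at 12.3, 14.4 and 21.7 CPM, stayed above the HH18 double-negative ones at 7.21, 3.02 and 9.72 CPM, and E2-only libraries, at 5.63, 3.51 and 3.99 CPM, overlapped them.

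Other high members included intervals open in every population. At chr3:32986936-32987136 the HH18 libraries read 128, 147 and 114 CPM (double-positive), 122, 127 and 125 CPM (E2-only) and 74.6, 81.6 and 83.2 CPM (double-negative). At HH25 they read 14.9, 17.3 and 14.5 CPM, 11.7, 12.9 and 14.7 CPM, and 10.3, 6.41 and 3.85 CPM. Every HH18 library was above every HH25 library there, by a wide margin. At chr5:49353470-49353670 the double-positive libraries went from 178, 158 and 143 CPM to 80.5, 80.7 and 42.6 CPM, the smallest drop of its 3 populations (ratio 2.33), while E2-only cells went from 162 ± 5.48 to 24.7 ± 4.19 CPM and double-negative cells from 43.1 ± 11.5 to 7.49 ± 1.04 CPM (SD, n = 3). At chr12:7587432-7587632 the smallest ratio was 2.42, from 49.3 ± 4.47 to 19.7 ± 3.48 CPM in double-negative cells (SD, n = 3).

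**Figure D2:**
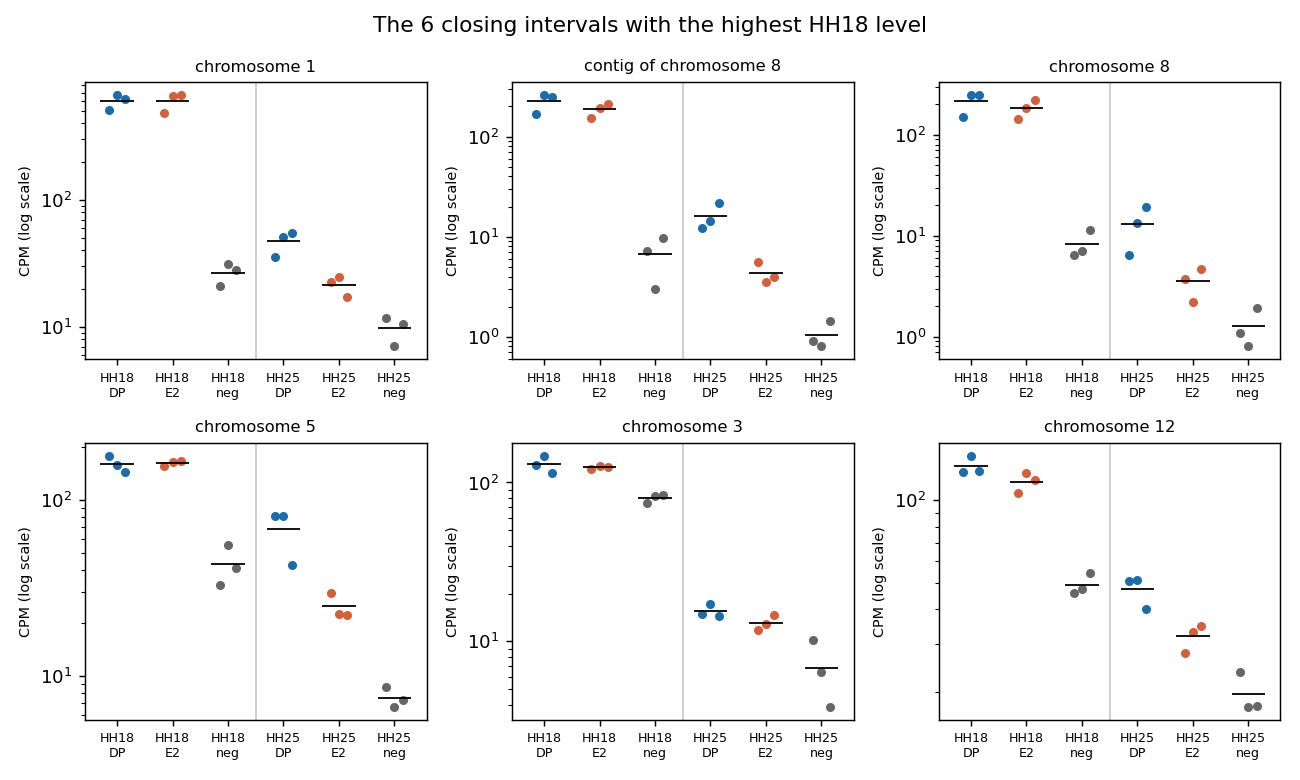
CPM (log axis, a range of its own in each panel) in each of the 18 libraries at the 6 closing intervals with the highest HH18 level; points are libraries and black lines group means, for double-positive (DP), E2-only (E2) and double-negative (neg) cells. Both crest populations stand above double-negative cells at the tallest interval, on chromosome 1 (602 and 599 against 26.7 CPM at HH18), and at the chromosome 3 interval every HH18 library lies above every HH25 library.

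The members that fell most in every population stood below the 6 tallest ones at HH18 but above the set's median. The largest smallest ratio, 12.1, belonged to chr1:184818301-184818501. Its double-positive libraries read 35.7, 32.0 and 34.8 CPM at HH18 and 0.383, 3.24 and 2.12 CPM at HH25, its E2-only libraries 57.8, 65.3 and 61.6 CPM and then 2.81, 0.219 and 1.99 CPM, and its double-negative libraries 26.6, 29.2 and 16.6 CPM and then 1.26, 1.0 and 0.722 CPM. No HH25 library came near any HH18 library. Next was chrZ:81400259-81400459, where double-negative cells (37.1 ± 6.38 CPM) were between double-positive (26.2 ± 4.72 CPM) and E2-only cells (40.5 ± 3.60 CPM) at HH18 and all 3 groups averaged 1.82 to 2.40 CPM at HH25 (SD, n = 3). The other 4 were chr1:9695352-9695552, chr6:35247830-35248030, chr2:96577153-96577353 and chr3:372070-372270, with smallest ratios of 9.36, 9.05, 8.46 and 8.44. In each of these 6 the E2-only group was the highest at HH18, and all 9 HH18 libraries exceeded all 9 HH25 libraries.

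The rule did not compare populations within a stage, but it used the same group means. Differences between populations were tested with edgeR's quasi-likelihood test, with Benjamini-Hochberg adjustment over the 134020 intervals. An interval was called below an adjusted p of 0.05. For orientation, the stage contrasts that the rule did use called 17.3% of all intervals lower at HH25 in double-positive cells, 27.2% in E2-only cells and 11% in double-negative cells. Members were chosen on these contrasts, so no calls are given for them there. The members' median log2 changes from HH18 to HH25 were −2.07, −2.97 and −1.90, beside −0.05, 0.00 and −0.02 over all intervals. The rule keeps intervals with a high count at HH18, at which a given difference is easier to call than at a typical interval. Its E2-only condition was met by 21605 intervals and its double-negative condition by 12480, so the choice may also favour a direction between populations. The shares and directions below describe the chosen members, and the part that the choice itself plays in them was not tested.

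E2-only cells at HH18 were higher than double-negative cells across most of the set. They were called higher in 2328 members (70.4%), against 18.2% of all intervals, and lower in 20 members (0.605%), against 14.4%. The members' median log2 difference was 1.36, with quartiles at 0.70 and 1.92, beside a median of −0.01 over all intervals. In the opening intervals the direction was the other way, with 0.696% called higher, 19.1% called lower and a median of −0.73. That set was chosen by the mirrored rule on the same libraries, which keeps intervals low at HH18. Its group mean was below 2 CPM in 84.2% of intervals in HH18 E2-only and 55.7% in HH18 double-negative cells. The direction in the opening intervals, here and in the other HH18 comparisons, is therefore not independent of that choice. The count of 20 was small enough to move: it was 13 without replicate 3 of the HH18 E2-only cells, 49 with libraries scaled by their totals alone and 53 among members chosen on TMM-scaled CPM (4249 members).

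The largest E2-only excess over double-negative cells lay in the 3 intervals described first. The contig and chromosome 8 intervals may share reads, so they may not be separate members. Whether any of the 3 lies at a reporter enhancer is not stated in the labels. Reads from a reporter could not be told apart there, so the sizes and p-values may not describe genomic chromatin alone. The contig interval read 155, 195 and 213 CPM in E2-only and 7.21, 3.02 and 9.72 CPM in double-negative libraries, a log2 difference of 4.88 ± 0.21 (SE; adjusted p = 4.9e-42, edgeR's quasi-likelihood test). The intervals of chromosomes 1 and 8 differed by 4.77 ± 0.15 and 4.67 ± 0.22 on the same scale. None of these groups overlapped.

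A few members went the other way. At chrZ:13432936-13433136 E2-only libraries read 12.8, 12.8 and 10.3 CPM and double-negative libraries 47.7, 52.4 and 25.6 CPM at HH18, a log2 difference of −1.56 ± 0.27 (SE; edgeR adjusted p = 8e-07). Its double-positive libraries, at 11.2, 10.7 and 6.95 CPM, were as low as the E2-only ones. At HH25 the order was the same, with 3.28, 3.07 and 2.49 CPM in E2-only and 15.3, 26.4 and 12.8 CPM in double-negative libraries (log2 difference −2.70 ± 0.32, SE; edgeR adjusted p = 2.1e-11). Crest and double-negative libraries did not overlap at either stage. The other members named by the same rule were chrZ:40985165-40985365 (4.19 ± 0.594 against 15.5 ± 5.65 CPM) and chr1:141159419-141159619 (3.54 ± 1.29 against 9.60 ± 1.41 CPM; SD, n = 3), and the latter was not called without replicate 1 or replicate 3 of the HH18 E2-only cells.

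Double-positive cells at HH18 were also higher than double-negative cells, in fewer members. They were called higher in 1267 (38.3%; background 17.8%) and lower in 177 (5.35%; background 13.9%), and 1863 were not called. The median log2 difference was 0.53, beside −0.05 over all intervals, and the opening intervals had −0.41. Higher calls were 87.7% of the calls, and 77.4% when libraries were scaled by their totals alone, a scaling that also shifted the median of all intervals to −0.27 and that of the members to 0.31.

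At the contig interval, the leading member of this comparison, double-positive libraries read 168, 261 and 248 CPM against 7.21, 3.02 and 9.72 CPM, a log2 difference of 5.13 ± 0.21 (SE; edgeR adjusted p = 4.1e-44). The limits given above for this interval, on shared reads and on reads from a reporter, hold here too. The leading member in the other direction was chr15:2778879-2779079, with 3.16, 4.33 and 5.30 CPM in double-positive and 24.7, 34.3 and 29.2 CPM in double-negative libraries (log2 difference −2.55 ± 0.34, SE; edgeR adjusted p = 4.1e-10). E2-only libraries lay between the 2 groups there, at 17.8, 12.4 and 13.2 CPM, and no library of one group overlapped another. At chr3:75128757-75128957 double-positive cells were at 5.28 ± 2.39 and double-negative cells at 24.3 ± 10.8 CPM, and at chrZ:53312727-53312927 at 3.49 ± 0.282 and 15.6 ± 4.32 CPM (SD, n = 3).

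Between the crest populations at HH18, E2-only cells held the higher level far more often. Double-positive cells were called lower than E2-only cells in 1521 members (46.0%; background 16.5%) and higher in 349 (10.6%; background 17%). The median log2 difference of double-positive against E2-only cells was −0.63, beside 0.00 over all intervals and 0.34 in the opening intervals. By group mean, E2-only cells were the highest population at HH18 in 2174 members (65.7%), double-positive cells in 868 (26.2%) and double-negative cells in 265 (8.01%). Over all intervals the shares were 28.1%, 28.7% and 43.1%.

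Members open mainly in E2-only cells were led by chr1:165418524-165418724. Its E2-only libraries read 60.3, 65.3 and 66.2 CPM and its double-positive libraries 2.88, 5.33 and 2.65 CPM, a log2 difference of −4.16 ± 0.29 (SE; edgeR adjusted p = 1.2e-24). Double-negative libraries were in between, at 11.7, 9.07 and 16.6 CPM, without overlap. Similar orders held at chr2:27314652-27314852 (44.8 ± 2.35 CPM in E2-only and 2.81 ± 1.28 CPM in double-positive cells) and at chr3:99785824-99786024 (75.2 ± 3.48 and 4.91 ± 2.69 CPM; SD, n = 3). In these 3 members the double-positive ratio of HH18 to HH25 was 2.03 to 2.39, and its HH18 level was 2.81 to 4.91 CPM.

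Members open mainly in double-positive cells included chr2:84576115-84576315. Its double-positive libraries read 74.5, 74.9 and 65.6 CPM, its E2-only libraries 10.3, 10.1 and 9.94 CPM and its double-negative libraries 4.99, 2.02 and 2.52 CPM at HH18. The log2 difference of double-positive against E2-only cells was 2.81 ± 0.24 (SE; edgeR adjusted p = 3.4e-19), and the 3 groups did not overlap. At HH25 the double-positive libraries had come down to 5.75, 8.28 and 4.50 CPM. The other 2 members of this kind were chr8:6197442-6197642 (19.5 ± 1.06 against 2.92 ± 2.08 CPM) and chr2:79089579-79089779 (47.1 ± 3.70 against 6.81 ± 1.45 CPM; SD, n = 3). The smallest ratio of HH18 to HH25 in these 3 members was 2.03 to 2.45. At chr8:6197442-6197642 it lay in E2-only cells, whose libraries overlapped between stages. They read 0.860, 5.03 and 2.87 CPM at HH18 and 1.41, 0.877 and 0.498 CPM at HH25.

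Put together, the HH18 calls gave 1023 members (30.9%; 5.52% of all tested intervals) higher in both crest populations than in double-negative cells. Another 1375 (41.6%; 10.7%) were higher in E2-only cells than in both other populations, and 328 (9.92%; 11.9%) were higher in double-positive cells than in both others. No HH18 comparison called 537 members (16.2%), where 44.6% of all tested intervals had no call. These patterns overlap, since an interval may be higher in both crest populations and still differ between them.

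**Figure D3:**
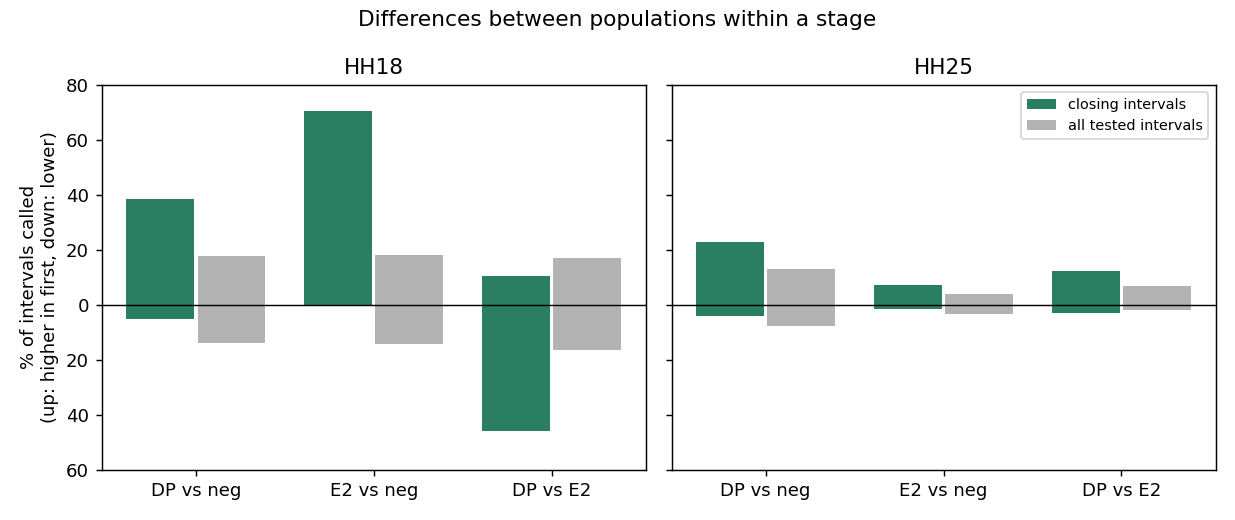
Percent of closing intervals and of all tested intervals called in each of the 6 comparisons between populations within a stage; bars above 0 are intervals higher in the group named first and bars below 0 are intervals lower in it (DP, double-positive; E2, E2-only; neg, double-negative). The closing intervals reach 70.4% higher in E2-only than double-negative cells at HH18 and stay at or below 22.8% in every comparison at HH25.

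At HH25 the populations differed in far fewer members, at levels that were also far lower. Double-positive cells were called higher than double-negative cells in 755 members (22.8%; background 13.2%) and lower in 132 (3.99%; background 7.83%), with a median log2 difference of 0.32 (−0.01 over all intervals). E2-only cells were called higher than double-negative cells in 241 (7.29%; background 3.79%) and lower in 53 (1.60%; background 3.46%), with a median of 0.24 (0.00). Double-positive cells were called higher than E2-only cells in 406 (12.3%; background 7%) and lower in 98 (2.96%; background 2.07%), with a median of 0.18 (0.05). The last median depended on scaling and was 0.10 with median-of-ratios factors or DESeq2 and 0.06 with library totals alone, where that of all intervals was −0.04, −0.04 and −0.08. Members with no call in the respective comparison numbered 2420, 3013 and 2803, and 2293 (69.3%; 75.8% of all tested intervals) had no call in any of the 3. Removing single libraries moved the small counts: 132 became 75 without replicate 2 of the double-positive cells, and 53 became 25 to 33 without any one of the 6 libraries compared.

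The population most often highest by group mean was E2-only at HH18 and double-positive at HH25, a change that was not tested. The mean of the library medians stayed highest in E2-only cells at HH25 (2.81 CPM, against 2.70 in double-positive and 2.23 in double-negative cells). At HH25 double-positive cells had the highest group mean in 1513 members (45.8%), E2-only cells in 1170 (35.4%) and double-negative cells in 624 (18.9%), and 373 members (11.3%; 6.16% of all tested intervals) were called higher in double-positive cells than in both other populations. Over all intervals these highest means were split 34.4%, 32.2% and 33.4%. At HH25, 7 members (0.212%; 0.0731% of all tested intervals) were called higher in E2-only cells than in both others.

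A leading HH25 difference was at chrZ:9835899-9836099. Double-positive libraries read 16.1, 19.4 and 15.1 CPM, E2-only libraries 5.16, 6.14 and 2.74 CPM and double-negative libraries 1.08, 1.80 and 0.482 CPM. The log2 difference of double-positive against double-negative cells was 3.87 ± 0.34 (SE; edgeR adjusted p = 6.5e-18), and no groups overlapped. At HH18 the levels at this interval were 47.3 ± 3.41, 36.2 ± 3.33 and 10.0 ± 2.82 CPM in the same order (SD, n = 3).

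At chr2:26273881-26274081 the double-positive group mean was highest at both stages, with libraries at 25, 26 and 18.2 CPM at HH18 and 7.28, 3.96 and 14.0 CPM at HH25. E2-only libraries read 8.17, 6.96 and 7.84 CPM and then 1.41, 2.63 and 3.99 CPM, the last just above the lowest double-positive library. Double-negative libraries read 1.94, 2.02 and 5.76 CPM and then 0.180, 0.200 and 0.482 CPM, the last resting on 4 counts in all, so the HH25 difference was called (edgeR adjusted p = 4e-12) without a usable fold. The same limit holds for chr4:15241990-15242190, where the 3 HH25 double-negative libraries each held the lowest value in the table and the E2-only libraries read 2.34, 0.658 and 2.49 CPM (edgeR adjusted p = 0.01, not called without replicate 3 of the HH25 E2-only cells). It holds as well for the 3 leading members higher in double-positive than E2-only cells at HH25 (chr4:89947907-89948107, chrZ:13866983-13867183 and chr20:7159892-7160092), where the E2-only group held 4 counts in all at each.

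At 3 other leading HH25 differences the lower group held 8, 13 and 6 counts in all. At chr3:78705983-78706183 E2-only cells (3.78 ± 0.903 CPM) were above double-negative cells (0.547 ± 0.228 CPM), with double-positive cells higher still at 7.33 ± 1.44 CPM (SD, n = 3). At chr3:75128757-75128957, already lower in double-positive cells at HH18, the HH25 libraries read 1.15, 0.720 and 2.12 CPM in double-positive and 11.2, 12.4 and 6.02 CPM in double-negative cells (log2 difference −2.76 ± 0.45, SE; edgeR adjusted p = 2.3e-07). At chr2:146736283-146736483 the double-positive libraries, at 0.383, 1.44 and 0.264 CPM, were below the E2-only libraries at 5.63, 6.14 and 1.99 CPM (−2.63 ± 0.55, SE; edgeR adjusted p = 0.00034). The groups did not overlap in any of these comparisons.

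Calls carried over between stages to different extents. Of the members higher in double-positive than double-negative cells, 683 were called at both stages, which is 53.9% of the HH18 list and 90.5% of the HH25 list. Of those higher in E2-only than double-negative cells, 233 were called at both, 10.0% of the HH18 list and 96.7% of the HH25 list. Members lower in double-positive than E2-only cells at both stages numbered 91 (5.98% and 92.9%), and members higher at both numbered 158 (45.3% and 38.9%). Over all intervals, 53.4% of the HH18 calls higher in double-positive and 6.19% of those higher in E2-only than double-negative cells were also called at HH25. For double-positive against E2-only cells, 29.1% of the higher and 3.56% of the lower HH18 calls over all intervals were. Of the HH25 calls over all intervals, 12722 of 17659 higher in double-positive than double-negative cells were also called at HH18. So were 1512 of 5085 higher in E2-only than double-negative cells. For double-positive against E2-only cells the numbers were 6622 of 9382 higher and 786 of 2771 lower. Whether a difference changed between stages was not tested, and the lower counts at HH25 limit what could be called there.

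The members were spread over the genome with some unevenness. Chromosomes 1 to 5 held 58.4% of them (53.2% of all intervals), chromosomes 6 to 10 held 15.5% (15.1%) and chromosomes 11 to 33, most of them microchromosomes, held 15.0% (19.9%). Contigs not placed on a chromosome held 49 members (1.48%; 6.05% of all intervals). No member was on W, the female-specific chromosome of birds, but W held only 105 intervals (0.0750% of all), too few to read an absence from. The opening intervals had 56.0%, 15.2% and 19.4% on the 3 chromosome classes and 3.87% on other contigs.

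Chromosome Z, of which male birds carry a pair and females a single copy, held 319 members (9.65%), against 5.39% of the opening intervals and 5.62% of all intervals. Members were 4.06% of the Z intervals, the highest share of any numbered or sex chromosome, followed by chromosome 27 (3.37%), 33 (3.02%) and 11 (2.80%). Among chromosomes with at least the 298 intervals of chromosome 33, the lowest shares were on chromosomes 28 (0.238%) and 25 (0.260%). The share of all counts on Z moved with stage too, from 5.71% to 6.65% in HH18 libraries and from 5.07% to 6.04% in HH25 libraries. The median ratios of HH18 to HH25 over all Z intervals were 1.11, 0.994 and 1.13 (double-positive, E2-only, double-negative), each above the genome-wide value. The part of this shift in the count of Z members was not tested.

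**Figure D4:**
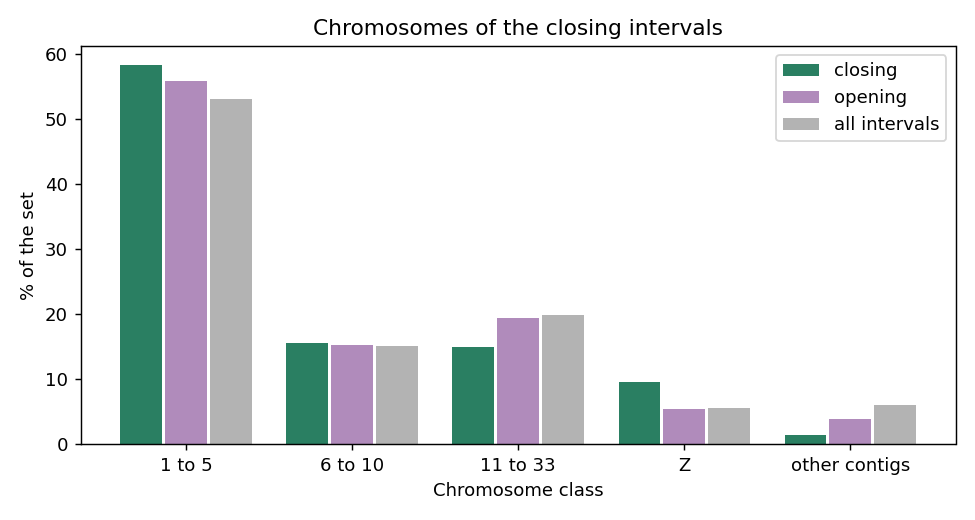
Percent of closing, opening and all intervals in each chromosome class (bars). Z holds 9.65% of the closing intervals and 5.62% of all intervals, and other contigs hold 1.48% and 6.05%.

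Closing intervals had neighbours of their own kind more often than intervals at large, as did opening intervals. The nearest interval was itself a member for 205 of the 3284 members that have a neighbour on their contig (6.24%), and a member was nearest to 2.42% of all intervals. An opening interval was nearest to 10.4% of opening intervals, to 4.32% of members and to 4.92% of all intervals. The nearest interval had median ratios of 1.12, 1.06 and 1.14 in the 3 populations, against 0.946, 0.855 and 1.02 over all nearest intervals. Another member lay within 10 kb of 478 members (14.5%) and within 50 kb of 1300 (39.3%), and the median distance to the nearest other member was 76190 bp. Intervals were unevenly placed along chromosomes, and neighbours may share an open region.

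The densest 50 kb window was on chromosome 27, with 8 members among the 16 intervals of the window that starts at 3764341. The last member ended at 3805492. The median member there read 7.52, 11.5 and 8.51 CPM at HH18 (double-positive, E2-only, double-negative) and 1.08, 1.18 and 1.41 CPM at HH25. The tallest member, chr27:3805292-3805492, averaged 12.9, 14.9 and 19.7 CPM at HH18 and 2.01, 1.09 and 2.97 CPM at HH25. The leading population at HH18 varied, and at chr27:3764341-3764541 the means were 4.46, 12.8 and 12.8 CPM. The 8 intervals of the window outside the set had HH18 medians of 3.19, 5.61 and 3.77 CPM and HH25 medians of 1.72, 1.41 and 1.58 CPM. A further window on the same chromosome, from 3821907, held 5 members among 21 intervals.

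Chromosome 2 had 7 members among the 16 intervals of the window starting at 102601836, the last ending at 102635425. Here too members differed in their leading population. At chr2:102601836-102602036 double-positive cells led at HH18 (25.8 CPM, against 14.4 in E2-only and 9.92 in double-negative cells), and at chr2:102617333-102617533 E2-only cells led (19.6 CPM, against 5.16 and 8.01). Both fell to between 0.605 and 2.21 CPM in every population at HH25.

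Chromosome 7 had 7 members among the 17 intervals of the window starting at 16330200, the last ending at 16358145, at higher levels. The tallest, chr7:16347722-16347922, averaged 57.3, 57.0 and 40.8 CPM at HH18 and 5.63, 5.81 and 6.13 CPM at HH25. The members stood in the first 27.7 kb of the window, and its other 10 intervals had HH18 medians of 7.25, 5.76 and 7.48 CPM and HH25 medians of 6.71, 5.22 and 3.91 CPM. No opening interval lay in any of these windows, nor in the next 4, on chromosomes 3 (6 members), 33 (6), 2 (5) and 26 (5). The windows were chosen for their many members and held only 6 to 14 other intervals each. Opening intervals are 4.92% of all intervals, so their absence from so few says little and was not tested.

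**Figure D5:**
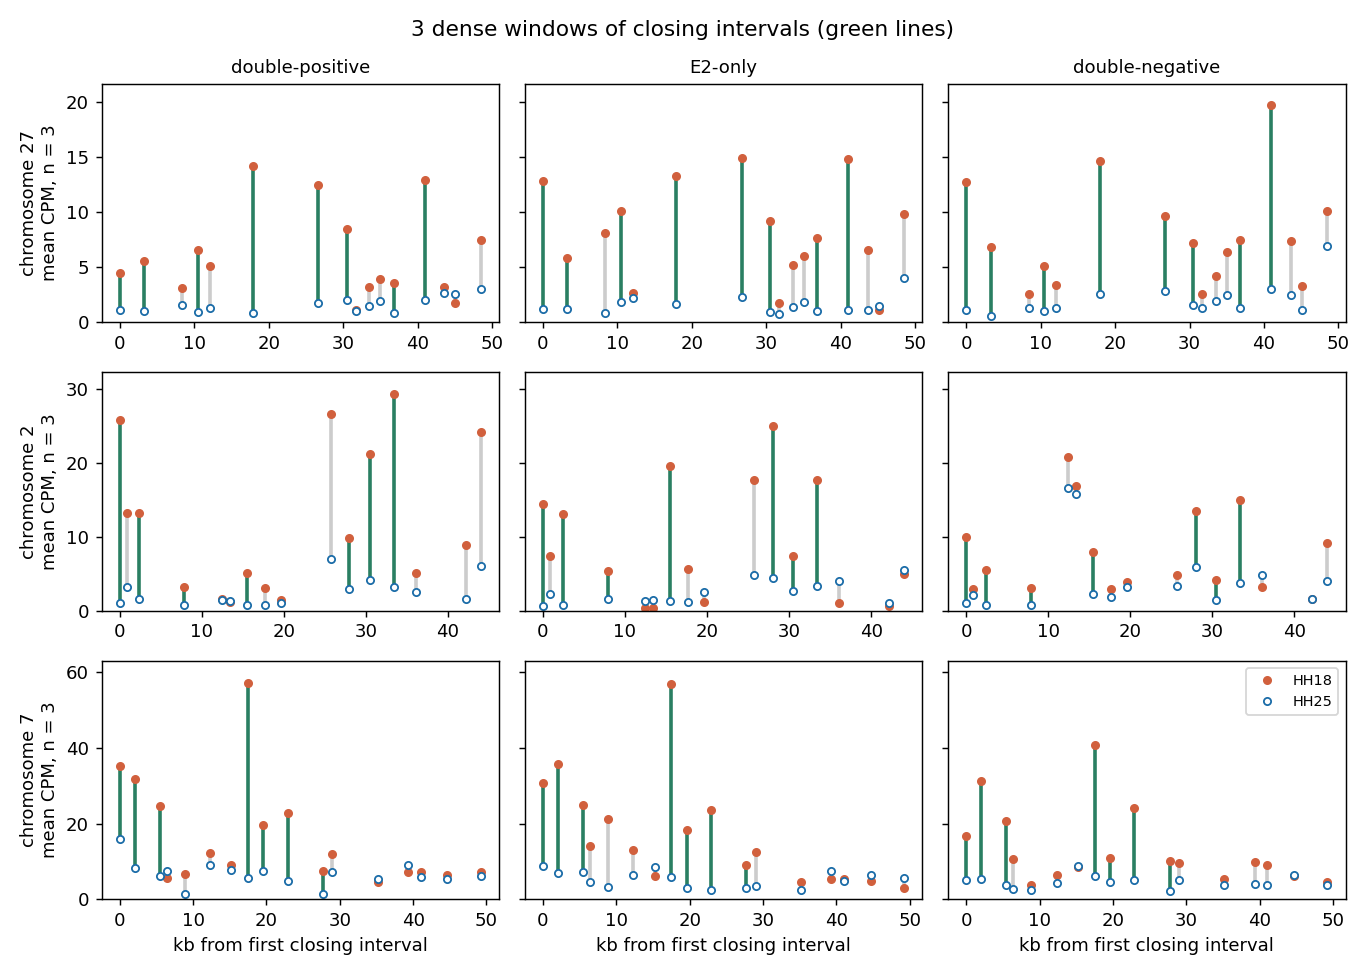
Mean CPM (n = 3) at HH18 and HH25 of each interval in the 3 densest 50 kb windows, by distance in kb from the first closing interval, for the 3 populations; green lines join the values of closing intervals and grey lines those of other intervals. The tallest closing interval of the chromosome 7 window goes from 57.3 to 5.63 CPM in double-positive cells.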

How the data were processed

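Samples were 18 ATAC-seq libraries of 6 groups of 3, and 9 further columns of the table were not used. The authors deposited raw read counts over common intervals, unnormalized. Per the submitters' processing notes, Bowtie 1.0.0, MACS2, HOMER 4.7 and the build galGal5 were used; their settings, duplicate handling and any shift of reads are not stated there. Per the labels, DNA was tagmented for 20 min, amplified for 11 cycles and read as 40 bp pairs. Coordinates are as listed, and the files do not state whether starts count from 0 or 1.

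The members, lists and tests were chosen with earlier results of these data known. CPM used column totals. Counts were fitted with edgeR 4.0.16 (TMM scaling, filterByExpr, 1 mean per group, no replicate block, quasi-likelihood test, Benjamini-Hochberg adjustment) after a check on simulated data, and DESeq2 1.42.0 was an alternative. P-values rest on the spread between the 3 libraries of a group, estimated over all 6 groups together and with information shared across intervals. Separate embryos are not stated for these libraries. Floors of 3 counts cover counting error only.

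Intervals are named by rank: the 6 highest at HH18, the 6 with the largest smallest ratio, the 3 nearest the threshold on either side, the 3 largest called differences each way without overlap per comparison, and the 3 densest windows of 50 kb. Planned counts of motifs, genes and marker genes needed a galGal5 genome or annotation and were not made, so tissue labels were not checked against markers.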

Additional observations from a re-analysis of the deposited data

Results flagged for a closer look

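In some members the populations changed places with stage: both within-stage comparisons were called in opposite directions by edgeR's quasi-likelihood test, with no overlap between the libraries compared. The difference between stages itself was not tested, and the members named here were chosen after their values were seen. The rule chose members on their stage ratios, with medians of 4.83 in E2-only, 2.88 in double-positive and 2.86 in double-negative cells. A change of places needs unlike ratios, so the shares below are not independent of that choice. Double-positive cells were higher than double-negative cells at HH18 and lower at HH25 in 4 members (0.121%; 0.0783% of all tested intervals), chr2:49037242-49037442, chr4:25750460-25750660, chr5:21748745-21748945 and chr6:24501431-24501631. At the last of these the means were 58.2 ± 2.40 against 40.0 ± 8.92 CPM at HH18 and 2.20 ± 1.64 against 5.95 ± 1.40 CPM at HH25 (SD, n = 3). The opposite order held in 1 member (0.0302%; 0.254%), chr4:77384567-77384767, with 8.44 ± 3.90 against 18 ± 2.71 CPM at HH18 and 2.91 ± 1.83 against 1.11 ± 0.542 CPM at HH25.

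E2-only cells were higher than double-negative cells at HH18 and lower at HH25 in 14 members (0.423%; 0.0873% of all tested intervals). At chr2:123424477-123424677 they averaged 37.5 ± 3.63 against 14.2 ± 0.779 CPM at HH18 and 0.927 ± 0.175 against 4.55 ± 1.49 CPM at HH25. Double-positive cells were lower than E2-only cells at HH18 and higher at HH25 in 41 members (1.24%; 0.231%). At chr1:7709271-7709471 they averaged 44.1 ± 7.04 against 69.9 ± 3.88 CPM at HH18 and 15.5 ± 3.09 against 4.15 ± 0.595 CPM at HH25. No member showed either of these 2 orders in reverse. Over all tested intervals the reverse shares were 0.225% (E2-only against double-negative) and 0.0933% (double-positive against E2-only). HH25 levels of a few CPM rest on few counts.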

How the results depend on the processing

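The set held 4249 members on TMM-scaled CPM, 4423 with a pseudocount of 0.5, 2049 with a pseudocount of 2, 702 with a ratio of at least 3, 1739 with full separation of stages and 3114 to 3604 with any 1 library left out. With single libraries left out, members higher and lower numbered 1057 to 1253 and 124 to 176 (HH18 double-positive against double-negative), 1982 to 2247 and 13 to 21 (HH18 E2-only against double-negative), 274 to 322 and 1311 to 1464 (HH18 double-positive against E2-only), 617 to 729 and 75 to 116, 173 to 260 and 25 to 33, and 272 to 335 and 69 to 86 (the same comparisons at HH25). At an adjusted p below 0.01 the lower counts were 99, 9, 61, 22 and 41 for all but the HH18 crest comparison, and at HH25 the higher counts were 138 (E2-only against double-negative) and 269 (double-positive against E2-only). Among members with a ratio of at least 3, higher and lower counts were 329 and 32, 540 and 2 (chr4:88504948-88505148 and chrZ:10013271-10013471), 77 and 330 at HH18 and 191 and 26, 56 and 10, 106 and 15 at HH25; the set is smaller by construction. For HH18 double-positive and E2-only against double-negative cells, lower counts were 305 and 49 with library totals alone and 276 and 53 among members chosen on TMM-scaled CPM. Library totals alone moved the median log2 difference of all intervals to −0.27 and −0.23 there. With a pseudocount of 0.5, 1.99% of members lay on other contigs. Replicate numbers did not pair the libraries consistently (same-number correlations −0.04 to 0.11, own number best in 7 of 18). For E2-only against double-negative cells at HH25 the own number was best for all 3 numbers (correlations 0.03 to 0.11). With a replicate block the counts in the order above were 1263 and 173, 2322 and 21, 345 and 1512, 755 and 132, 234 and 53, and 398 and 100. DESeq2, the median-of-ratios factors, no filter on low counts and robust shrinkage of the spread, the last chosen after seeing the data, moved no count by over 1.5 times. Of the 36 largest differences, 213 of 216 values with a library left out kept direction and call, and none reversed. Depth limits the HH25 comparisons, where 51 to 360 members stood at the lowest count in a library.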
